A study of Mus musculus with 20 samples.

Results

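Fatty acid elongation and desaturation were followed in male and female mouse liver through 8 genes, the elongases *Elovl1*, *Elovl2*, *Elovl3* and *Elovl5* and the desaturases *Fads1*, *Fads2*, *Fads3* and *Scd2*. They were chosen by name, and all 8 were found among the 36128 genes of the deposited table, of which 20570 are protein-coding. PolyA-selected liver RNA was sequenced from 20 mice of 8 weeks of age, with 5 males and 5 females of each of 2 inbred strains. B6 (C57BL/6J) is a classical laboratory strain and CAST (CAST/EiJ) was derived from wild mice, and no group carried a transgene or received a treatment according to the labels. Each library is 1 mouse, and each sex comparison shares its livers with the strain comparisons. The labels carry a second strain entry that contradicts the titles of all 5 CAST males and all 5 B6 females, and the titles were followed. By expression, 20 of 20 livers were nearest to a liver of the same titled strain, and 20 of 20 to one of the same titled sex. A liver can be nearest to one of its own group, so this cannot decide which strain entry of a whole group is right. Reads counted on genes ranged from 7969482 to 35328573 per liver. The 6 hepatocyte markers, among them *Alb* and *Ttr*, summed to 16731 FPKM or more in every liver. FPKM are fragment numbers relative to the exon length of the gene and the size of the library, so they can be compared between genes, and a level with ± is the mean and SD of n = 5 livers, whereas a log2 fold change with ± carries its standard error (SE).

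Fatty acids made in the liver or taken up from food are lengthened in the endoplasmic reticulum by a cycle whose condensing step is carried out by the elongases. Desaturases of the same membrane then place double bonds, with electrons delivered through cytochrome b5. For polyunsaturated chains the steps alternate: *Fads2* acts before *Elovl5*, *Fads1* follows, and *Elovl2* lengthens the longest products. *Elovl1* and *Elovl3* work on saturated and monounsaturated chains, *Scd2* is a relative of the main liver stearoyl-CoA desaturase *Scd1*, and *Fads3* is the least known of the front-end desaturase family. Liver is a main site of polyunsaturated fatty acid synthesis in the mouse.

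In mm9 coordinates, the 3 *Fads* genes lie side by side on chromosome 19, *Fads3* at chr19:10116038-10134161 on the plus strand, *Fads2* at chr19:10138654-10175993 on the minus strand and *Fads1* at chr19:10257378-10271360 on the plus strand. *Fads3* and *Fads2* are 4492 bases apart and *Fads2* and *Fads1* are 81384 bases apart. *Elovl3* (chr19:46206387-46210184, plus) and *Scd2* (chr19:44368166-44381354, plus) are on the same chromosome. *Elovl1* (chr4:118100698-118105558, plus), *Elovl2* (chr13:41277864-41315774, minus) and *Elovl5* (chr9:77765171-77832326, plus) are elsewhere. *Elovl1* overlaps *Cdc20* and *Elovl3* overlaps *Pitx3*, both on the opposite strand, and whether the counting used strand is not given in the sources used here. *Cdc20* reached at most 2.94 FPKM and *Pitx3* at most 0.147 FPKM in any liver. Of 5404 stretches of 50 bases in the *Scd2* transcript, 205 also occur in *Scd1*, *Scd3* or *Scd4* (3.79%), and *Scd2* also overlaps AC123853.2, so its low level is uncertain.

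The promoters of 5 of the 8 genes were found in the RefSeq table of promoters (GRCm38.p6), and the 250 bases before the start of 3 of them are shown, because *Elovl1* was higher in males of both strains, *Elovl5* in females of both strains and *Fads2* in CAST females. Capitals mark CCAAT or, for the other strand, ATTGG, the CCAAT box bound by NF-Y. The windows are chr4:118427843-118428092 (plus strand) for *Elovl1*, chr9:77917115-77917364 (plus strand) for *Elovl5* and chr19:10101504-10101753 (minus strand) for *Fads2*, each written 5′ to 3′ on the gene's strand.
Elovl1: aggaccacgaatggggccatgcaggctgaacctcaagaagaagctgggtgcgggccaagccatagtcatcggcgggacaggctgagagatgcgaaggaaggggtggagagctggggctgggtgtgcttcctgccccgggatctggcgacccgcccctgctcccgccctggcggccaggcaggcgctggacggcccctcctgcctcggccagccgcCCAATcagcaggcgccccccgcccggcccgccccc
Elovl5: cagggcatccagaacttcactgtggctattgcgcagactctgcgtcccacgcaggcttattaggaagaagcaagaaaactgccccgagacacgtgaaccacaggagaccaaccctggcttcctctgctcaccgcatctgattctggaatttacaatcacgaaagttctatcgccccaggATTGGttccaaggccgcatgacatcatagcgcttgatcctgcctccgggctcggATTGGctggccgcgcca
Fads2: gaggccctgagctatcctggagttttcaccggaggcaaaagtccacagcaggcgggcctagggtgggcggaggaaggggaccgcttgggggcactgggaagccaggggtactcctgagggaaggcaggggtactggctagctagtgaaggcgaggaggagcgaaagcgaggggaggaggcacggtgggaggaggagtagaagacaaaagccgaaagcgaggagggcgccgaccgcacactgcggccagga
The CCAAT box occurred once in the *Elovl1* window, 2 times in that of *Elovl5* and 2 times in that of *Fads3*, and these letters were not in the windows of *Fads2* and *Elovl2*. Of all 27025 promoters in the table, 34.5% held it in the same window. GGGCGG, the GC box, was matched 5 times each before *Elovl1* and *Elovl2*, 2 times before *Fads3* and 1 time before *Fads2*, with 33.0% of all promoters holding it. CACGTG, a palindromic E-box, was matched 1 time, before *Elovl5* (6.04% of all promoters). TCACNCCAC, a sterol regulatory element, and TTCNNNGAA, the palindrome of STAT factors, were in none of the 5 windows (1.03% and 7.14% of all promoters). All motifs were searched on both strands, and no motif is contained in another.

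Levels fell into 3 ranges. *Elovl2*, *Elovl5*, *Fads1* and *Fads2*, the enzymes of polyunsaturated chains, lay between 44.8 and 129 FPKM in every liver. *Elovl1* lay between 6.49 and 21.4 FPKM, and *Fads3* and *Scd2* between 0.312 and 1.37 FPKM, with 35 to 206 reads per liver. *Elovl3* was in the high range in males and near 1 FPKM in females. In B6 males the order of mean FPKM was *Elovl3*, *Elovl2*, *Fads2*, *Fads1* and *Elovl5*, and each of these overlapped its neighbour. The same held in CAST males for *Elovl3*, *Fads2*, *Fads1*, *Elovl5* and *Elovl2*. In females, *Fads2* had the highest mean in both strains, and *Elovl1* was below the range of the polyunsaturated enzymes in all 4 groups.

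**Figure D1:**
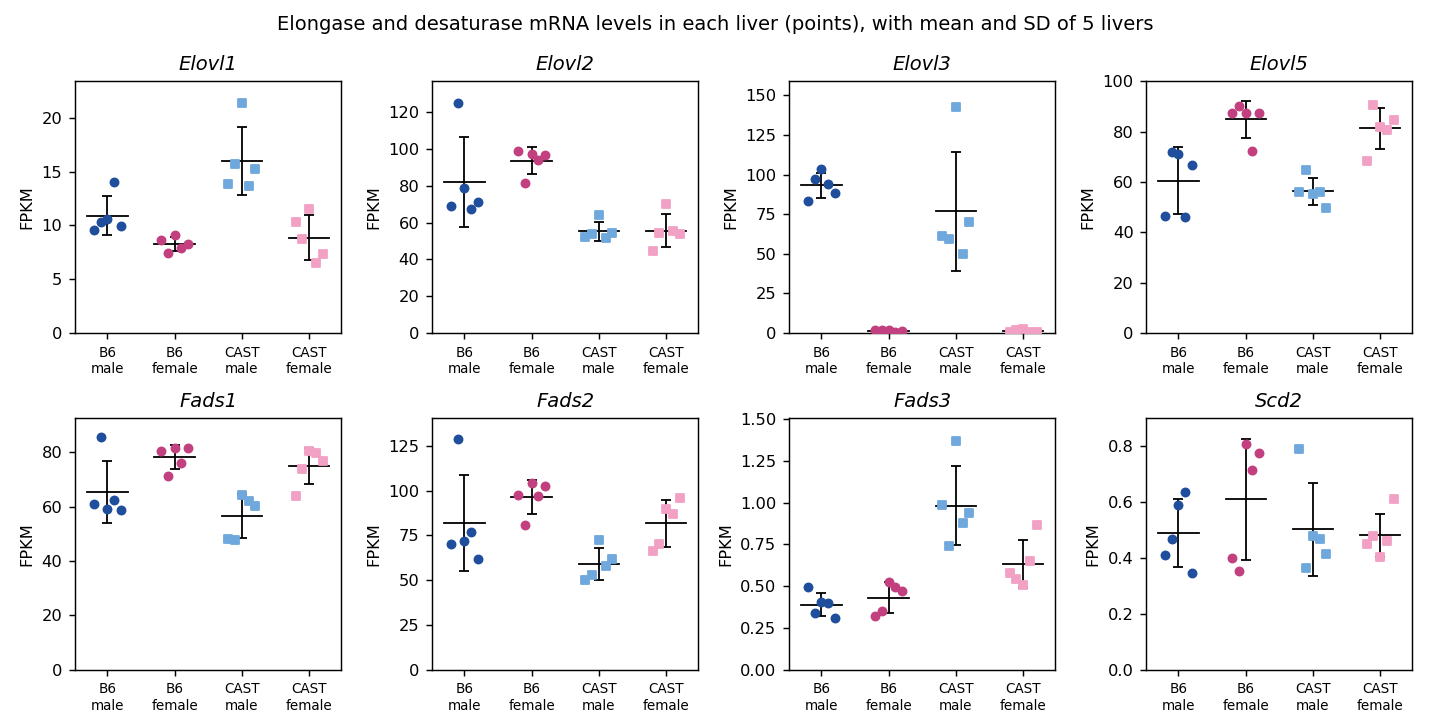
FPKM (linear axes from 0) of each elongase and desaturase in each of 20 livers, with 1 panel per gene and the groups on the x axis; points are livers, lines and bars the mean and SD of 5. *Elovl3* separates males (49.97 to 143) from females (0.602 to 2.53), and in *Elovl2*, *Fads1* and *Fads2* a single B6 male (125, 85.7 and 129) lies above the other 4.

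For males against females in B6 liver, 3 of 8 genes passed an adjusted p under 0.05 in edgeR's quasi-likelihood test, 2 higher in males and 1 higher in females. Of all 25690 genes tested, 7.55% passed, 3.99% higher in males and 3.56% higher in females, and 14.8% of those with a mean of at least 1 FPKM did. The median log2 fold change (male over female) was -0.19 over the 8 genes and 0.020 over all genes tested. Only *Elovl3* also exceeded a 2-fold difference, as did 2.40% of all genes.

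*Elovl3*, which lengthens saturated and monounsaturated chains, reached 83.2, 97.2, 103, 93.9 and 88.4 FPKM in the 5 B6 males and 1.89, 2.20, 2.02, 0.624 and 1.25 FPKM in the 5 females. The groups were far apart and the lowest female was B6 female 4. The log2 fold change was 5.89 ± 0.23 (SE), a 59.1-fold difference with an adjusted p of 3.72e-12. In CAST it reached 61.4, 59.5, 143, 49.97 and 70.2 FPKM in males and 0.602, 1.88, 2.53, 0.652 and 0.952 FPKM in females. CAST male 3 stood well above the other 4 males, and the sexes did not overlap. The log2 fold change in CAST was 5.74 ± 0.39, a 53.6-fold difference (adjusted p = 8.62e-09). *Elovl3* made up 38.2% ± 3.95 of the summed FPKM of the 4 elongases in male B6 and 36.2% ± 8.51 in male CAST livers, and the females of the 2 strains were at 0.840% ± 0.339 and 0.864% ± 0.478. That sum was 247 ± 38.4 FPKM in B6 males against 189 ± 10.1 in B6 females. In CAST it was 204 ± 45.1 in males and 147 ± 15.6 in females.

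*Elovl1*, which makes very long saturated chains for sphingolipids, was the other gene higher in males. Its levels were 9.55, 10.3, 10.6, 14.04 and 9.91 FPKM in B6 males and 8.61, 7.48, 9.14, 7.90 and 8.29 FPKM in B6 females. Every male was above every female, with a log2 fold change of 0.41 ± 0.095 (adjusted p = 0.0110), a call that limma on log2(FPKM + 0.1) did not make (adjusted p = 0.0529). CAST males had 13.9, 15.7, 21.4, 13.6 and 15.3 FPKM and CAST females 10.3, 8.74, 11.5, 6.49 and 7.35 FPKM. These did not overlap either, and the log2 fold change was 0.77 ± 0.15, a 1.70-fold difference (adjusted p = 0.00373).

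*Elovl5*, which lengthens the products of *Fads2*, was higher in females. B6 males had 46.4, 72.1, 71.3, 46.1 and 66.9 FPKM and B6 females 87.5, 90.2, 87.4, 72.1 and 87.3 FPKM. The B6 males fell into 2 low and 3 higher livers, and the lowest female lay barely above the highest male. *Elovl5* was 1.38-fold higher in B6 females (log2 fold change, male over female, -0.47 ± 0.13, adjusted p = 0.0305). That call was lost, with adjusted p-values of 0.0507 to 0.0754, when B6 male 1 or 4 or B6 female 1, 2, 3 or 5 was left out, and limma on log2(FPKM + 0.1) gave an adjusted p of 0.0605. In CAST it had 56.2, 64.8, 55.1, 56.0 and 49.8 FPKM in males and 68.5, 90.6, 81.8, 80.8 and 84.8 FPKM in females, without overlap. The log2 fold change was -0.60 ± 0.098, 1.52-fold higher in females (adjusted p = 0.000481), and the call held with each liver left out in turn.

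In CAST liver 5 of 8 genes passed the same threshold, 2 higher in males (*Elovl1* and *Elovl3*) and 3 higher in females. Of all 24722 genes tested, 5.65% passed, 2.35% higher in males and 3.30% higher in females, and 10.8% of those with a mean of at least 1 FPKM did. The median log2 fold change was -0.063 over the 8 genes and -0.0088 over all genes tested, and *Elovl3* alone exceeded 2-fold, as did 2.05% of all genes. The 3 genes higher in females were *Elovl5*, *Fads1* and *Fads2*.

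*Fads1*, which places the last double bond of arachidonic acid, had 48.3, 47.9, 64.5, 62.1 and 60.5 FPKM in CAST males and 63.9, 74.1, 80.4, 79.8 and 76.8 FPKM in CAST females. One female fell within the range of the males. It was 1.39-fold higher in females (log2 fold change -0.48 ± 0.11, adjusted p = 0.0143). *Fads2*, which opens the pathway from linoleic and linolenic acid, had 50.2, 52.8, 72.4, 57.8 and 61.9 FPKM in CAST males and 66.2, 70.0, 89.8, 86.7 and 96.0 FPKM in CAST females. CAST male 3 lay among the lower females. *Fads2* was 1.46-fold higher in females (log2 fold change -0.54 ± 0.12, adjusted p = 0.0103). Neither gene passed with limma on log2(FPKM + 0.1), where the adjusted p was 0.0607 for *Fads1* and 0.0821 for *Fads2*.

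In B6 the levels of *Fads1* were 61.1, 85.7, 59.0, 62.3 and 59.0 FPKM in males and 80.6, 71.4, 81.5, 76.2 and 81.7 FPKM in females. *Fads2* had 70.05, 129, 71.9, 76.6 and 61.9 FPKM in B6 males and 97.7, 80.8, 104, 96.9 and 103 FPKM in B6 females. In both genes B6 male 2 was above every female and the other 4 males were below every female. The log2 fold changes were -0.24 ± 0.099 (adjusted p = 0.182) and -0.21 ± 0.15 (adjusted p = 0.446), and neither gene was called. Without B6 male 2, the log2 fold change was -0.35 ± 0.075 for *Fads1* (adjusted p = 0.00562), -0.44 ± 0.085 for *Fads2* (adjusted p = 0.00259) and -0.37 ± 0.082 for *Elovl2* (adjusted p = 0.00804). The same 3 genes as with all livers passed as well, 6 of 8, where 7.76% of all genes tested did. B6 male 2 was singled out by its own values in *Fads1*, *Fads2* and *Elovl2*. The adjusted p-values and the count without it therefore describe the weight of this liver and are no independent test.

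The *Elovl2*, *Fads1* and *Fads2* of B6 male 2 were 1.75, 1.42 and 1.84 times the mean of the other 4 B6 males, *Elovl5* 1.25 times, and *Elovl1* and *Elovl3* 0.939 and 1.05 times. Of 11 other genes of lipid synthesis, 3 lay above the other 4 B6 males in this liver, 4 within their range and 4 below it. *Scd1* was at 853 FPKM, against 433 to 684 in the other 4, *Acly*, which makes cytosolic acetyl-CoA, at 45.9 against 31.6 to 41.1 and *Acaca*, acetyl-CoA carboxylase, at 6.28 against 4.48 to 5.90. *Fasn*, fatty acid synthase, was within the range at 21.98 against 20.6 to 39.8. Below it were *Thrsp*, a lipogenic response gene, at 43.8 against 56.7 to 127, *Mlxipl* at 53.2 against 70.7 to 82.1, *Insig1* at 70.5 against 77.9 to 95.1 and *Acss2* at 31.2 against 31.6 to 43.6.

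*Elovl2*, which lengthens the long polyunsaturated chains on the way to docosahexaenoic acid, did not pass the test for sex in either strain. B6 males had 69.1, 125, 78.7, 67.3 and 71.1 FPKM and B6 females 99.2, 81.5, 97.5, 93.8 and 96.8 FPKM, so that 4 males lay below every female and B6 male 2 above. CAST males had 52.1, 53.7, 64.3, 51.9 and 54.1 FPKM and CAST females 44.8, 54.3, 70.2, 55.4 and 53.8 FPKM, with wide overlap. The log2 fold changes were -0.16 (95% interval -0.46 to 0.13, adjusted p = 0.533) in B6 and -0.091 (-0.34 to 0.16, adjusted p = 0.750) in CAST.

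*Fads3* had 0.984, 0.739, 1.37, 0.876 and 0.940 FPKM in CAST males and 0.581, 0.546, 0.509, 0.651 and 0.869 FPKM in CAST females. The highest female lay above the lowest male, and the log2 fold change of 0.59 ± 0.17 did not pass in edgeR's quasi-likelihood test (adjusted p = 0.0508). The call changed with the processing, and among other settings it passed with DESeq2 (adjusted p = 0.0394), with edgeR's likelihood-ratio and exact tests (0.0397 and 0.0488), with library size alone (0.0291), with limma at a minimum of 0.1 FPKM (0.0484) and without CAST male 2 (0.0198) or CAST female 5 (0.0216), and not with limma on log2(FPKM + 0.1) without that minimum (0.119). In B6 the value was -0.12 ± 0.19 (adjusted p = 0.796). *Scd2* had 0.490 ± 0.121 FPKM in males and 0.609 ± 0.216 in females of B6. In CAST it had 0.501 ± 0.167 and 0.480 ± 0.0773, the sexes overlapped in both strains, and its log2 fold changes for sex were -0.29 ± 0.21 (adjusted p = 0.475) and -0.035 ± 0.17 (adjusted p = 0.939).

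Markers of other liver cells also differed by sex in B6. All 6 Kupffer cell and macrophage markers tested were lower in B6 males than females (summed FPKM 13.4 to 25.7 and 32.3 to 37.0), as were 4 of 5 stellate cell markers (16.9 to 24.98 and 31.9 to 35.95). In CAST, 2 of 5 stellate markers passed, higher in females, and 0 of 6 Kupffer markers did in edgeR and in DESeq2, 3 of them with an unadjusted p under 0.05 (summed FPKM 4.36 to 11.6 in males and 7.05 to 24.1 in females). The adipocyte markers summed to at most 1.76 FPKM in any liver. The part of these cells in the levels of the elongases and desaturases was not tested, and in whole liver fewer cells of a type cannot be told apart from less RNA per cell.

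Between strains in males, 4 of 8 genes passed an adjusted p under 0.05, 2 higher in B6 and 2 higher in CAST. Of all 25779 genes tested, 38.4% passed, 20.3% higher in B6 and 18.1% higher in CAST, and 53.6% of those with a mean of at least 1 FPKM did. The median log2 fold change (B6 over CAST) was 0.18 over the 8 genes and 0.069 over all genes. Between strains in females, 2 of 8 genes passed, *Elovl2* and *Fads3*, against 39.9% of all genes and 56.5% of those with a mean of at least 1 FPKM, with medians of 0.063 and 0.0015. The share of the 8 genes that passed lay near that of all genes in males and below it in females. The reads of each strain were mapped to a genome of that strain. A strain difference, also of a marker, therefore cannot be told apart from a difference in mapping.

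**Figure D2:**
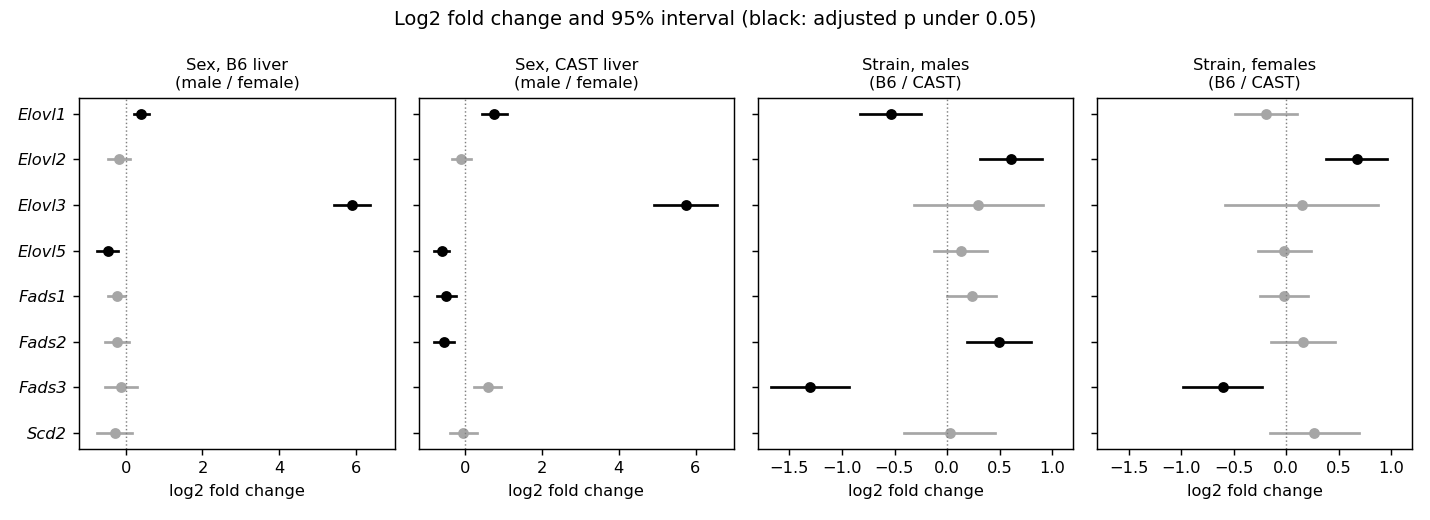
Log2 fold change (x axis) of each gene (y axis) for sex in each strain (male over female) and for strain in each sex (B6 over CAST), with bars for the 95% interval and black for an adjusted p under 0.05; sex and strain panels have different scales. *Elovl3* lies at 5.89 and 5.74 in the sex panels, *Elovl5* is below 0 in both, and *Elovl2* (0.61 and 0.67) and *Fads3* (-1.30 and -0.61) are called in both strain panels.

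*Elovl2* was higher in B6 in both sexes. From the levels given above, the lowest B6 male (67.3 FPKM) was above the highest CAST male (64.3) and the lowest B6 female (81.5) above the highest CAST female (70.2). The log2 fold change was 0.61 ± 0.14 in males, a 1.52-fold difference (adjusted p = 0.00101), and 0.67 ± 0.14 in females, a 1.59-fold difference (adjusted p = 0.000334). Both calls held with each liver left out in turn, with log2 fold changes from 0.40 to 0.68 in males and from 0.60 to 0.76 in females.

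*Fads3* was higher in CAST in both sexes. B6 males had 0.494, 0.338, 0.405, 0.399 and 0.312 FPKM, all below the lowest CAST male at 0.739. It was 2.46-fold higher in CAST males (log2 fold change -1.30 ± 0.18, adjusted p = 9.86e-07), the single difference between strains of more than 2-fold among the 8 genes, where 23.8% of all genes passed both thresholds in males. B6 females had 0.319, 0.349, 0.526, 0.494 and 0.469 FPKM, and the highest of them reached above the lowest CAST female at 0.509. It was 1.52-fold higher in CAST females (log2 fold change -0.61 ± 0.19, adjusted p = 0.00964). The B6 and CAST livers gave 533 and 1079 *Fads3* reads in all, so its values rest on few reads.

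*Elovl1* was 1.45-fold higher in CAST males than in B6 males (log2 fold change -0.54 ± 0.14, adjusted p = 0.00335), and the ranges overlapped only through B6 male 4 (14.04 FPKM). In females the value was -0.20 ± 0.14 (adjusted p = 0.289). *Fads2* was 1.41-fold higher in B6 males than in CAST males (log2 fold change 0.50 ± 0.15, adjusted p = 0.00923). Without B6 male 2 this was 0.27 ± 0.12 and was no longer called (adjusted p = 0.0684). In females it was 0.16 ± 0.15 (adjusted p = 0.416).

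*Elovl3*, *Elovl5*, *Fads1* and *Scd2* passed for strain in neither sex. The log2 fold change of *Fads1* was 0.23 ± 0.11 in males (adjusted p = 0.105) and -0.022 ± 0.11 in females (adjusted p = 0.913), and that of *Elovl5* was 0.13 ± 0.12 and -0.019 ± 0.12 (adjusted p = 0.415 and 0.935). For *Elovl3* it was 0.30 ± 0.30 in males, with a 95% interval from -0.32 to 0.91, and 0.15 ± 0.35 in females. All 6 Kupffer cell markers tested were higher in B6 in both sexes, and *Alas2*, the 1 erythroid marker that could be tested, was at 30.0 ± 3.73 FPKM in males and 4.36 ± 0.992 in females of B6 and at 2.36 ± 0.638 and 1.44 ± 0.421 in those of CAST (12.6-fold and 2.79-fold higher in B6). Of 3 bile duct and 3 leukocyte markers tested, 2 each were higher in B6 in both sexes. Their part in the strain differences was not tested.

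The difference of the sex bias between the strains, tested as the interaction of strain and sex, passed for 0 of 8 genes in edgeR's quasi-likelihood test and for 0 by DESeq2, where 2.28% of all genes and 5.19% of those with a mean of at least 1 FPKM did. At an unadjusted p under 0.05 it was 1 gene, *Fads3*, with a log2 value (sex difference in B6 less that in CAST) of -0.69 ± 0.26 and an adjusted p of 0.187. For *Fads1* and *Fads2*, which passed for sex in CAST and not in B6, the interaction was 0.26 (95% interval -0.071 to 0.58, adjusted p = 0.514) and 0.34 (-0.097 to 0.77, adjusted p = 0.517). With single livers left out, the interaction ranged from 0.14 to 0.31 for *Fads1* and from 0.11 to 0.43 for *Fads2*. The sex bias of *Fads1* and *Fads2* was therefore not shown to differ between strains. For *Elovl3* the interaction was 0.15 with an interval from -0.80 to 1.11.

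Ratios of FPKM within a liver compare enzymes of the same pathway. Of 16 comparisons of 4 ratios, 11 passed an adjusted p under 0.05 in the two-sided exact permutation test of 5 against 5 livers, whose smallest possible p is 0.00794. Among the 11, the sex calls of *Elovl3* to *Elovl1* mostly restate *Elovl3*, and the calls of *Scd2* to *Scd1* mostly restate *Scd1*. Both enter the same adjustment as the other ratios. The ratio of *Elovl2* to *Elovl5* was 1.37 ± 0.284 in males and 1.11 ± 0.141 in females of B6, and 0.987 ± 0.137 and 0.686 ± 0.101 in those of CAST. It was higher in B6 than in CAST females by 0.70 on the log2 scale, with no overlap (exact permutation test, adjusted p = 0.0181), and higher in CAST males than CAST females by 0.53 (exact permutation test, adjusted p = 0.0282). The ratio of *Fads2* to *Fads1* was 1.23 ± 0.169 in B6 males and 1.23 ± 0.0606 in B6 females, and 1.04 ± 0.0759 and 1.09 ± 0.112 in CAST males and females. The difference between the sexes of B6 was -0.010 on the log2 scale (exact permutation test, p = 0.889), and B6 was higher than CAST by 0.23 in males and 0.18 in females (exact permutation test, adjusted p = 0.0462 for each).

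*Elovl3* to *Elovl1* was 8.70 ± 1.19 in B6 males and 4.64 ± 1.22 in CAST males, higher in B6 by 0.93 on the log2 scale (exact permutation test, adjusted p = 0.0282). Among females it was 0.193 ± 0.0815 and 0.145 ± 0.0711 (exact permutation test, adjusted p = 0.444). The ratio of *Scd2* to *Scd1* differed in all 4 comparisons (exact permutation test, adjusted p = 0.0181 for each). It was taken against *Scd1*, which was at 630 ± 157 FPKM in males and 396 ± 79.5 in females of B6 and at 46.04 ± 9.15 and 108 ± 26.96 in those of CAST, while *Scd2* stayed between 0.347 and 0.805 FPKM in every liver. With a liver left out, the smallest p of the exact permutation test of 4 against 5 is 0.0159, and the adjustment runs over all 16 comparisons, so that a call can end for a comparison whose own livers all remained. Leaving out B6 male 1, 2, 3 or 4, B6 female 3, 4 or 5, CAST male 1, 4 or 5, or CAST female 1, 2, 3 or 4 ended both strain calls of *Fads2* to *Fads1* (adjusted p from 0.0508 to 0.0924). Leaving out B6 male 1, 2 or 3 or CAST male 1, 4 or 5 ended that of *Elovl3* to *Elovl1*, and leaving out CAST male 1, 4 or 5 or CAST female 1, 2 or 4 ended the sex call of *Elovl2* to *Elovl5* (adjusted p = 0.0508 each). Over all livers left out in turn, the log2 difference of *Fads2* to *Fads1* between strains ranged from 0.15 to 0.28 in males and from 0.13 to 0.24 in females. The strain difference of *Elovl3* to *Elovl1* in males ranged from 0.86 to 1.07. The sex difference of *Elovl2* to *Elovl5* in CAST ranged from 0.46 to 0.61.

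The genes were also followed from mouse to mouse within groups, as deviations of log2(FPKM + 0.1) from the group mean over 20 livers. Of 28 pairs, 3 passed an adjusted p under 0.05 by permutation within groups with Pearson's r, and these 3 join *Fads1*, *Fads2* and *Elovl2*. With Spearman's rho 4 passed, these 3 and the pair of *Fads3* and *Scd2*. *Fads1* and *Fads2* had Pearson's r = 0.894 (permutation p = 2.00e-05, adjusted p = 0.000560) and Spearman's rho = 0.824 (permutation p = 5.00e-05, adjusted p = 0.00140). *Elovl2* and *Fads2* had r = 0.848 (permutation p = 0.00125, adjusted p = 0.0117) and rho = 0.785 (permutation p = 0.000920, adjusted p = 0.0109). *Elovl2* and *Fads1* had r = 0.786 (permutation p = 0.000720, adjusted p = 0.0101) and rho = 0.683 (permutation p = 0.00117, adjusted p = 0.0109). Without the 2 livers farthest from the median on the x axis, r was 0.848, 0.726 and 0.643. All values share the library, its depth and its RNA.

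**Figure D3:**
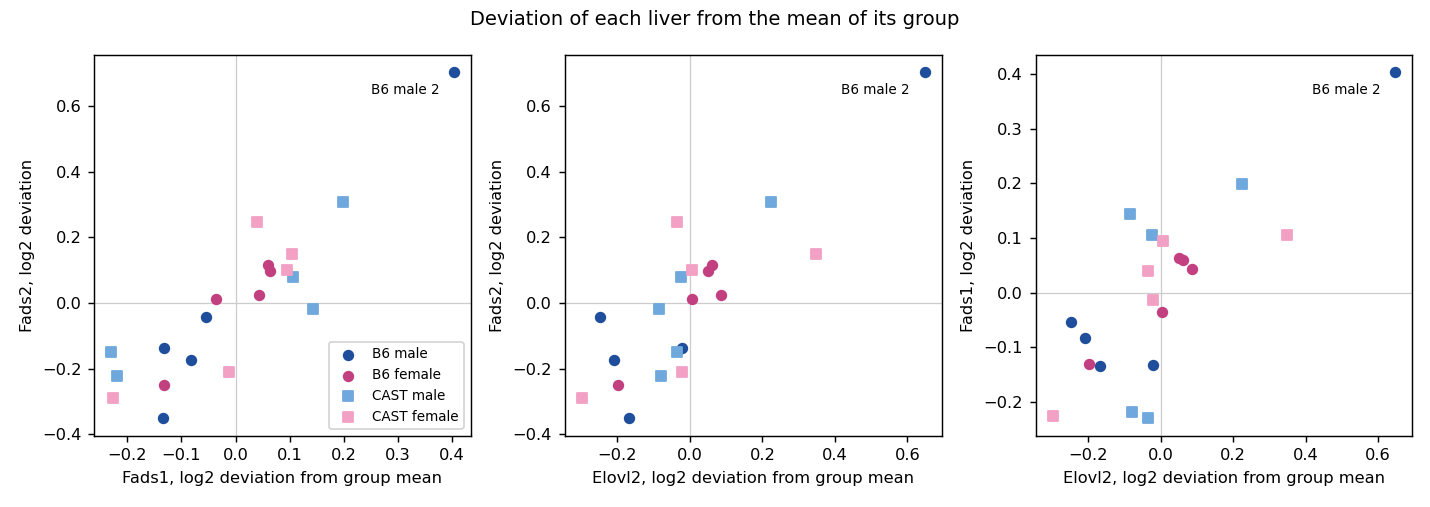
Deviation of each of 20 livers from its group mean in log2(FPKM + 0.1), for *Fads2* against *Fads1*, *Fads2* against *Elovl2* and *Fads1* against *Elovl2*; colours and shapes mark the groups. B6 male 2 lies farthest out in all 3 panels, and r is 0.808, 0.653 and 0.589 without it, of which the first alone passed an adjusted p under 0.05.

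B6 male 2 weighed heavily on these values. Without it, r was 0.808 for *Fads1* and *Fads2* (permutation adjusted p = 0.00168), which alone passed, 0.653 for *Elovl2* and *Fads2* and 0.589 for *Elovl2* and *Fads1* (permutation adjusted p = 0.103 for each). *Fads1* and *Fads2* had r = 0.976 over the 10 B6 livers (permutation adjusted p = 0.0333) and 0.814 over the 10 CAST livers (permutation adjusted p = 0.0742). As a description over 8893 protein-coding genes with a mean of at least 1 FPKM, *Fads1* and *Fads2* were each other's nearest gene and *Fads2* was the nearest to *Elovl2*. Without B6 male 2, *Fads2* was 6th nearest to *Fads1*, for *Fads2* the gene *Fads1* had rank 50, and for *Elovl2* the genes *Fads2* and *Fads1* had ranks 11 and 52.

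**Figure D4:**
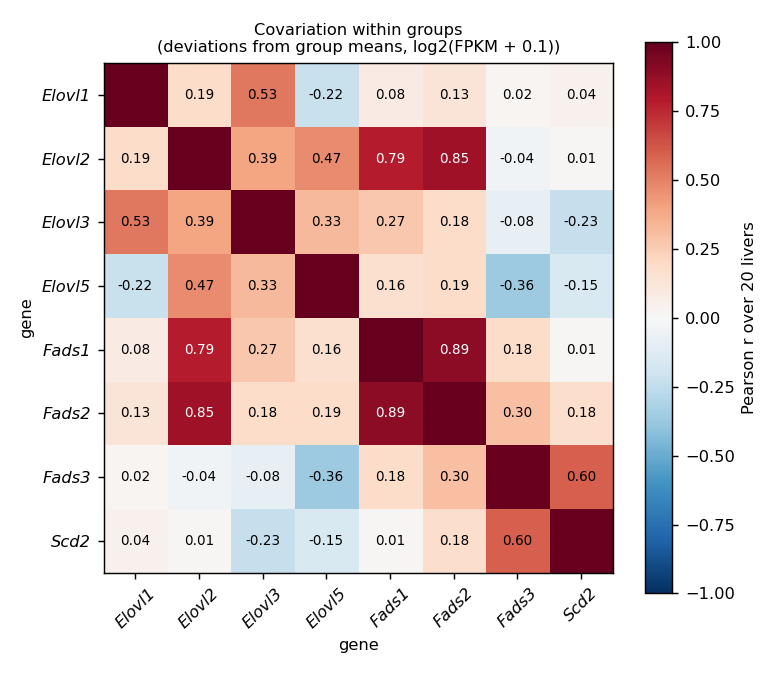
Pearson's r over 20 livers between deviations from group means for each pair of the 8 genes (both axes), coloured from -1 to 1. The block of *Elovl2*, *Fads1* and *Fads2* (0.79 to 0.89) stands out, *Fads3* and *Scd2* are at 0.60, and *Elovl5* and *Fads2*, which act one after the other, are at 0.19.

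*Elovl5* had r = 0.162 to *Fads1*, 0.186 to *Fads2* and 0.472 to *Elovl2*. *Fads3* and *Scd2*, both low, had r = 0.597 (permutation p = 0.0142, adjusted p = 0.0991) and rho = 0.666 (permutation p = 0.00628, adjusted p = 0.0440). *Elovl1* and *Elovl3*, both higher in males, had r = 0.529 (permutation p = 0.0452, adjusted p = 0.211) and rho = 0.532 (permutation p = 0.0492, adjusted p = 0.253), and r was 0.217 without the 2 livers farthest from the median.

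Of the 9 other elongases and desaturases, 2 of 8 tested were higher in B6 males than females (*Scd1* 1.61-fold and *Fads6* 1.34-fold). In CAST, 3 of 9 were higher in females, *Scd1* 2.48-fold, *Elovl6*, which lengthens palmitate, 1.64-fold and *Degs1*, a ceramide desaturase, 1.24-fold. For sex, 14.8% (B6) and 10.8% (CAST) of all genes with a mean of at least 1 FPKM passed. Between strains, 3 of 8 tested passed in males, 2 of them higher in B6, and 5 of 8 in females, 2 of them higher in B6. DESeq2 called 3 in males and 3 in females. The shares of all genes with a mean of at least 1 FPKM were 53.6% in males and 56.5% in females. *Scd1* was higher in B6, 13.9-fold in males and 3.45-fold in females, and *Fads6* 1.42-fold and 1.38-fold, while *Elovl7* was 5.75-fold and 4.34-fold higher in CAST. In CAST females *Degs1* was 1.24-fold higher, as was *Elovl6*, named here after its value was seen, 1.49-fold. *Scd1* was the 1 gene of this list whose sex bias differed between strains (interaction 2.02 ± 0.26, adjusted p = 1.60e-05). It was thus opposite in direction in the 2 strains, where *Elovl1*, *Elovl3* and *Elovl5* kept theirs.

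Of 12 genes of the elongation cycle and its electron donors found by symbol, 2 were higher in B6 males. They were *Cyb5r3*, cytochrome b5 reductase (1.40-fold), and *Hsd17b12*, the ketoacyl reductase of the cycle (1.25-fold). In CAST 0 of 11 passed for sex in edgeR and in DESeq2, 2 of them with an unadjusted p under 0.05. For sex, 14.8% of all genes with a mean of at least 1 FPKM passed in B6, near the 2 of 12, and 10.8% in CAST. Between strains 6 passed in males, 3 in each direction, and 9 in females, 4 higher in B6, beside 53.6% and 56.5% of all genes with a mean of at least 1 FPKM. *Hsd17b12* was 2.22-fold higher in CAST males and 3.36-fold in CAST females, and its interaction passed (0.60 ± 0.13, adjusted p = 0.0122). *Ptplb*, a dehydratase of the cycle, was 1.44-fold and 1.595-fold higher in CAST, and *Cyb5r1* was 5.58-fold and 5.56-fold and *Cyb5b* 1.41-fold and 1.32-fold higher in B6.

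Of 20 genes of lipogenesis and its regulators, 3 passed for sex in B6 and 3 in CAST. These counts lie near the 14.8% and 10.8% of all genes with a mean of at least 1 FPKM that did. In B6, *Thrsp* was 2.01-fold higher in males and *Pnpla3* 2.77-fold and *Srebf2* 1.26-fold higher in females. In CAST all 3 were higher in females, *Pnpla3* 4.29-fold, *Srebf1*, a sterol and lipogenic regulator, 1.59-fold and *Me1* 1.31-fold. Between strains 12 of 20 passed in each sex, near the 53.6% (males) and 56.5% (females) of all genes with a mean of at least 1 FPKM that did. Of the 12, 7 and 5 were higher in B6 in males and females, among them *Pparg* (24.4-fold and 9.27-fold), and *Thrsp* was 3.15-fold and 8.38-fold higher in CAST. The median log2 fold change of this list was -0.073 for sex in B6 and -0.22 in CAST.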

How the data were processed

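Liver RNA of 20 mice was measured by polyA-selected RNA-seq in 4 groups of 5. The authors mapped 50 nt paired reads with TopHat2, B6 reads to mm9 and CAST reads to a genome carrying CAST variants, and counted unique reads on exons with featureCounts. The deposited counts are raw whole numbers for each gene in each liver, in 1 table per strain. The FPKM values deposited by the authors are scaled to exon length and library size. Of the columns, 24 with other per-liver values or medians were not used, nor were the authors' fold changes and p-values.

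Counts were tested in R 4.3.3 with edgeR 4.0.16 (TMM, quasi-likelihood test, p-values adjusted by Benjamini-Hochberg over every gene having 1 read or more). Sex was tested in the 10 livers of each strain. Strain and the interaction were tested in 1 fit of all 20 livers over 25779 genes. This fit omitted 2028 genes that only 1 count table lists although the other strain has an FPKM above 0. All 8 genes averaged at least 10 counts in both strains. Livers of 1 group were distinct (chi-square per degree of freedom at least 8.82). The p-values measure spread between mice. Ratios were tested by exact permutation, and covariation by 100000 permutations within groups, in Python 3.11.15 with scipy 1.17.1. Results were recomputed with DESeq2 1.42.0, with size factors from DESeq2 or with no factor but library size, with the exact and likelihood-ratio tests, filterByExpr, limma 3.58.1 on log2(FPKM + 0.1) or log2(FPKM + 1) or with a minimum mean of 0.1 FPKM, a block for the replicate number, each liver left out, ratios from counts, covariation on other scales or within each strain and, added after the data were seen, covariation without B6 male 2. In tests on simulated data with a 4-fold change in 200 genes, this test called all 200 for sex in B6 and 10 unchanged genes of 25438, all 200 for sex in CAST with 4 unchanged of 24464, and 198 for the interaction with 7 unchanged of 25622. The 8 genes and the gene lists were chosen with earlier results of these data known. From each list, up to 4 genes with the smallest p among those passing a comparison could be named, and for each of the 8 genes the 3 with the most similar deviations. Marker lists of hepatocytes, Kupffer cells, endothelium, stellate cells, bile duct, adipocytes, leukocytes and erythroid cells were counted. Promoters are those of RefSeq on GRCm38.p6 and other coordinates are mm9 (gencode annotation). One gene is not reported here.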

Additional observations from a re-analysis of the deposited data

Results flagged for a closer look

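Dixon's critical value for a group of 5 livers is 0.71 of the group's range. In 9 of 32 groups, the highest or lowest liver lay farther than this from its neighbour. The nominal rate for a single group is about 1 in 20. The 32 groups are not independent, because all genes were measured in the same livers. The share of such groups over all genes was not computed, so an excess over chance was not tested. B6 male 2 was the highest in 3 of the 9 groups: *Elovl2* at 125 FPKM (next liver 78.7), *Fads1* at 85.7 FPKM (next 62.3) and *Fads2* at 129 FPKM (next 76.6). CAST male 3 was the highest in another 3: *Elovl1* at 21.4 FPKM (next 15.7), *Elovl2* at 64.3 FPKM (next 54.1) and *Elovl3* at 143 FPKM (next 70.2). In the rest, *Elovl1* was highest in B6 male 4 at 14.04 FPKM (next 10.6), *Elovl5* was lowest in B6 female 4 at 72.1 FPKM (next 87.3), and *Scd2* was highest in CAST male 1 at 0.788 FPKM (next 0.477).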

How the results depend on the processing

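The sex differences of *Elovl1*, *Elovl3* and *Elovl5* in CAST and *Elovl3* in B6, and the strain differences of *Elovl2* in both sexes and of *Elovl1* and *Fads3* in males, kept direction and call under all alternatives run. Of 3 genes called for sex in B6, limma called 1 on log2(FPKM + 0.1) and 1 on log2(FPKM + 1), *Elovl1* (adjusted p = 0.0529 and 0.0610) and *Elovl5* (0.0605 and 0.0677) being lost, and the number called was 2 to 6 with single livers left out. Of 5 called for sex in CAST, limma called 3 on either scale, with *Fads1* (adjusted p = 0.0607 and 0.0649) and *Fads2* (0.0821 and 0.0901) lost. Of 2 called for strain in females, limma on log2(FPKM + 1) called 1, *Fads3* being lost (adjusted p = 0.0659). The 11 ratio calls numbered 7 to 12 when single livers were left out, with 7 without CAST male 1, 4 or 5 and 12 without B6 male 5 or CAST male 3, where *Elovl2* to *Elovl5* for strain in males was added (exact permutation test, adjusted p = 0.0423 each, and 0.0529 with all livers). Of 3 pairs called for covariation, 1 was called in B6 alone, 0 in CAST alone and 1 without B6 male 2. The cause of these changes was not tested.

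The replicate number as a block gave 5 genes for sex in B6, with *Fads1* (adjusted p = 0.0476) and *Fads2* (adjusted p = 0.0429) added, and 6 in CAST, with *Fads3* (adjusted p = 0.00124) added, and changed the count of calls in no other comparison. The labels name no batch that the numbers share, and the rule for pairing, a correlation over 0.1 in every pair, was not met: same-numbered livers had correlations over 0.1 in 1, 4, 0 and 3 of 5 pairs for sex in B6, sex in CAST, strain in males and strain in females (9063 genes), with means of 0.072, 0.158, -0.073 and 0.147, and 1, 3, 0 and 3 of 5 livers correlated best with their own number.

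Signs turned only in values that were not called. For strain in females, the value of *Elovl5* became 0.024 with DESeq2 and with its size factors, 0.070 with library size alone, 0.012 with filterByExpr, and 0.064, 0.063 and 0.064 with limma on log2(FPKM + 0.1), log2(FPKM + 1) and the minimum of 0.1 FPKM; that of *Fads1* became 0.021, 0.021, 0.069, 0.0093, 0.065, 0.064 and 0.065 in the same order. *Scd2* for sex in CAST became 0.057 with library size alone and 0.023, 0.016 and 0.023 with limma, and for strain in males -0.015, -0.0085 and -0.015 with limma. *Elovl2* for sex in CAST became 0.00022 with library size alone. With single livers left out, the ranges were -0.15 to 0.026 for *Elovl2* for sex in CAST, -0.21 to 0.078 for *Scd2* for sex in CAST, -0.082 to 0.20 for *Scd2* for strain in males, -0.066 to 0.52 for *Elovl3* and -0.073 to 0.038 for *Elovl5* for strain in females, -0.27 to 0.0088 for *Elovl2* and -0.26 to 0.51 for *Elovl3* in the interaction, and -0.085 to 0.044 for the ratio of *Fads2* to *Fads1* for sex in B6. Depth limits *Fads3* and *Scd2*, with 35 to 206 reads per liver.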

Other observations

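Among the genes whose variation from mouse to mouse was most like that of each of the 8 genes, *Cyp7b1* (r = 0.840), an oxysterol hydroxylase of bile acid synthesis, was nearest to *Elovl1*, followed by *Nudt7* (0.835) and *Mrap* (0.827). Nearest to *Elovl3* were *Mrps26* (0.764), *Ces3a* (0.757) and *Pmvk* (0.739), and to *Elovl5* *Bcl2l1* (0.789), *Tmem191c* (0.710) and *Cldn1* (0.698). *Fads3* was most like *Ehd3* (0.817), *Cd300lg* (0.806) and *Olfm1* (0.803), and *Scd2* like *Tbc1d14* (0.843), *Thra* (0.843) and *Ino80* (0.839). After *Fads1* or *Fads2*, *Gabbr2* was near to *Elovl2* (0.791) and to *Fads2* (0.850), *Abhd2* to *Fads2* (0.857), and *P2ry4* (0.806) and *Zc3hav1* (0.799) to *Fads1*. These are descriptions over 20 livers of 1 tissue, each chosen as the highest of 8893 or 8894 values.

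Enzymes that use or shorten the products also differed. Of 13 genes of peroxisomal chain shortening, 5 passed for sex in B6, 3 of them higher in females, and 8 in CAST, 6 higher in females. *Abcd2*, a peroxisomal importer of very long chain acyl-CoA, was 7.34-fold higher in B6 females and 4.62-fold in CAST females. *Scp2*, the peroxisomal thiolase, was 2.49-fold higher in B6 males, and its sex bias differed between strains (interaction 0.90 ± 0.15, adjusted p = 0.000512), as did that of *Acaa1b* (1.52 ± 0.29), *Acox2* (0.61 ± 0.12) and *Acaa1a* (0.52 ± 0.14), where none of the 8 elongases and desaturases passed. Between strains, 10 of 13 passed in males and 5 in females, beside 53.6% and 56.5% of all genes with a mean of at least 1 FPKM. Of 14 acyl-CoA synthetases and phospholipid acyltransferases, 2 were higher in B6 males, 1 was higher in CAST females (*Acsl5*, 1.40-fold), 7 were higher in B6 than CAST males and 4 passed for strain in females, 2 in each direction. Of all genes with a mean of at least 1 FPKM, 14.8% passed for sex in B6, 10.8% for sex in CAST, 53.6% for strain in males and 56.5% for strain in females. For the interaction, 0 of the 14 acyl-CoA synthetases and phospholipid acyltransferases passed in edgeR, 2 had an unadjusted p under 0.05 and 1 passed in DESeq2. *Acsl3* was 2.35-fold and 2.63-fold higher in B6 males and females.

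Of the other cell markers, 2 of 5 endothelial markers and 1 of 3 leukocyte markers were higher in B6 females, and 1 of 4 bile duct markers was higher in B6 males. Between strains, 1 of 5 endothelial markers was higher in B6 in each sex and another lower in B6 females, 2 of 5 stellate markers passed in males, 1 in each direction, and 1 of 3 adipocyte markers was lower in B6 than CAST females. Of 6 hepatocyte markers, 2 passed for sex in B6, 1 in each direction, and 1 in CAST, while 3 passed for strain in each sex.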
